A study of Mus musculus with 4 samples.

Results

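The genes described here are 40 antioxidant and Nrf2 response genes, taken by symbol from a table of 21881 genes: superoxide dismutases, peroxide-removing enzymes, the thioredoxin and glutathione systems, classical Nrf2 targets, metallothioneins and their regulators. All 40 were present. They were chosen with earlier results of the NR6A1 comparison known, in particular the low Osgin1 and Sod3 values with NR6A1, so that comparison is described for them without a test. The data are mRNA sequencing values of 4 libraries from 2 immortalised lines of mesenchymal stem cells, clone 6 and clone 12. Mesenchymal stem cells are fibroblast-like cells of adult bone marrow that can form bone, fat and cartilage. Both lines are of the C57BL/6 strain with genotype Dicer f/f, in which Dicer is intact. Each line was infected with a pMMP-puro retrovirus, which confers puromycin resistance and held either no insert (vector, 2 libraries) or Flag-HA-NR6A1 (NR6A1, 2 libraries). NR6A1, a nuclear receptor without a known ligand, normally acts in early embryos and germ cells, and the comparison asks what changes when it is raised in adult cells. Each line is a single clone, and each clone and virus is represented by 1 library.

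Cells lower superoxide to hydrogen peroxide with superoxide dismutases and then to water with catalase, glutathione peroxidases and peroxiredoxins. The glutathione peroxidases and peroxiredoxins draw electrons from glutathione and thioredoxin and ultimately from NADPH. Nrf2, encoded by Nfe2l2, is held back by Keap1 under resting conditions, and when oxidants or electrophiles modify Keap1 it binds antioxidant response elements in the promoters of many of these genes. Metallothioneins are small cysteine-rich proteins that bind zinc and copper and are induced by metals through metal response elements. In marrow stromal cells this network buffers the oxidants of metabolism and of bone and fat formation.

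Values are FPKM, fragments scaled by transcript length and by library size, so levels can be set side by side between genes. Changes are differences of log2(FPKM + 1), a scale that understates the change of low genes. The table holds no read numbers. The steps between low values put the libraries at 20.4 to 24.2 M (1e6) mapped reads, where 1 FPKM on a transcript of 2000 bases stands for 36.6 to 43.3 reads. Nr6a1 went from 4.18 FPKM with vector to 783 with NR6A1 in clone 6 and from 2.80 to 598 in clone 12. Of 12 markers of mesenchymal stem cells or fibroblasts, 11 were at 1 FPKM or more in every library, and the list summed to 5614 and 5957 FPKM in clone 6 and to 4413 and 4631 in clone 12. The remaining marker, Thy1, a surface antigen of many such cells, was at 0.0297 FPKM in the vector library of clone 6 and listed at 0 in the others. The 7 blood, 3 endothelial and 3 epithelial markers summed to at most 0.169 FPKM per list in any library, and Cd3e and Hbb-b1 were listed at 0 throughout. Of 3 fat markers, Adipoq and Plin1 stayed at 0.318 FPKM or less, while Fabp4, a fatty acid carrier, ran from 73.3 FPKM (NR6A1, clone 12) to 285 (vector, clone 6). Its part in the results below was not tested. In bulk libraries such as these, fewer cells of a type and less RNA per cell cannot be told apart.

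As a group, the genes were abundant. The summed level of all 40 was 4177 FPKM in the vector library of clone 6, 4469 in the NR6A1 library of that clone, 5165 with vector in clone 12 and 4881 with NR6A1 in clone 12. These sums are 0.682% to 0.833% of all FPKM in a library. Both libraries of clone 12 were above both of clone 6, while with NR6A1 the sum was 1.07 times the vector value in clone 6 and 0.945 times in clone 12. Peroxiredoxins made up the largest share of the 10 role groups, with 1310.1 to 1530 FPKM per library, followed by the thioredoxin system with 698 to 794.

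**Figure D1:**
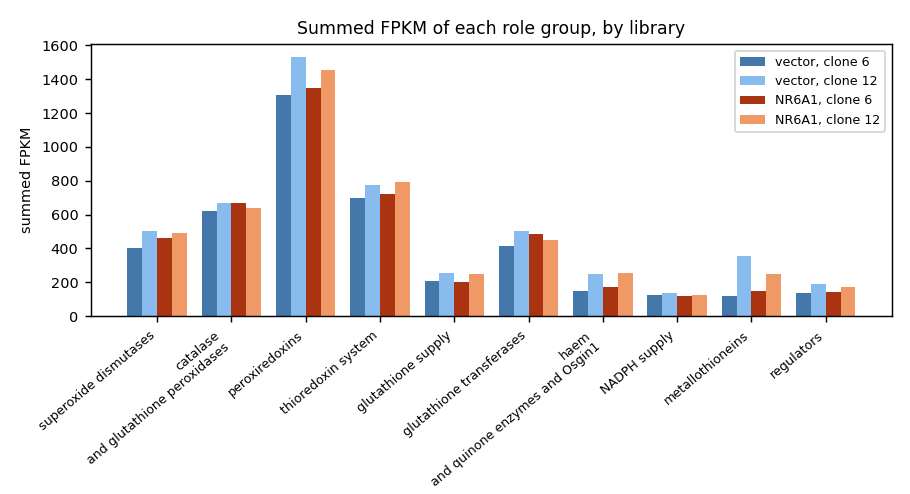
Summed FPKM of each role group (vertical axis, linear) in the 4 libraries, 1 bar per library, with no error bars because each bar is a single library. Peroxiredoxins reach 1310.1 to 1530 FPKM, and the metallothionein bars of clone 12 (355 and 247 FPKM) stand above those of clone 6 (117 and 148 FPKM).

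Among single genes, 13 averaged 100 FPKM or more across libraries, 22 lay between 10 and 100, and 5 were under 10. The order by mean level began with thioredoxin (Txn1, 591 FPKM), Prdx1 (463), Sod1 (428), Prdx5 (341), Gstp1 (287), Gpx4 (279.6), Prdx2 (239), Gpx1 (236), Mt1 (189) and Prdx4 (185). Neighbours in this order overlap in their ranges over the 4 libraries, except at 2 places. Prdx5 (308 to 394 FPKM) lay wholly above Gstp1 (247 to 304), and Gpx4 (261 to 302) wholly above Prdx2 (226 to 253). The 5 lowest were Nqo1 (8.46 FPKM), Gpx7 (8.38), Sod3 (8.33), Osgin1 (6.19) and Gpx3 (0.11). Gpx3, the secreted glutathione peroxidase of plasma, was the 1 gene under the filter for testing, a mean of at least 1 FPKM. In clone 6 it read 0.160 FPKM with vector and 0.0735 with NR6A1, and in clone 12 it read 0.169 and 0.0378, the equivalent of 1.38 to 6.93 reads on a transcript of 2000 bases, so no fold is given for it. The other 39 genes passed the filter.

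**Figure D2:**
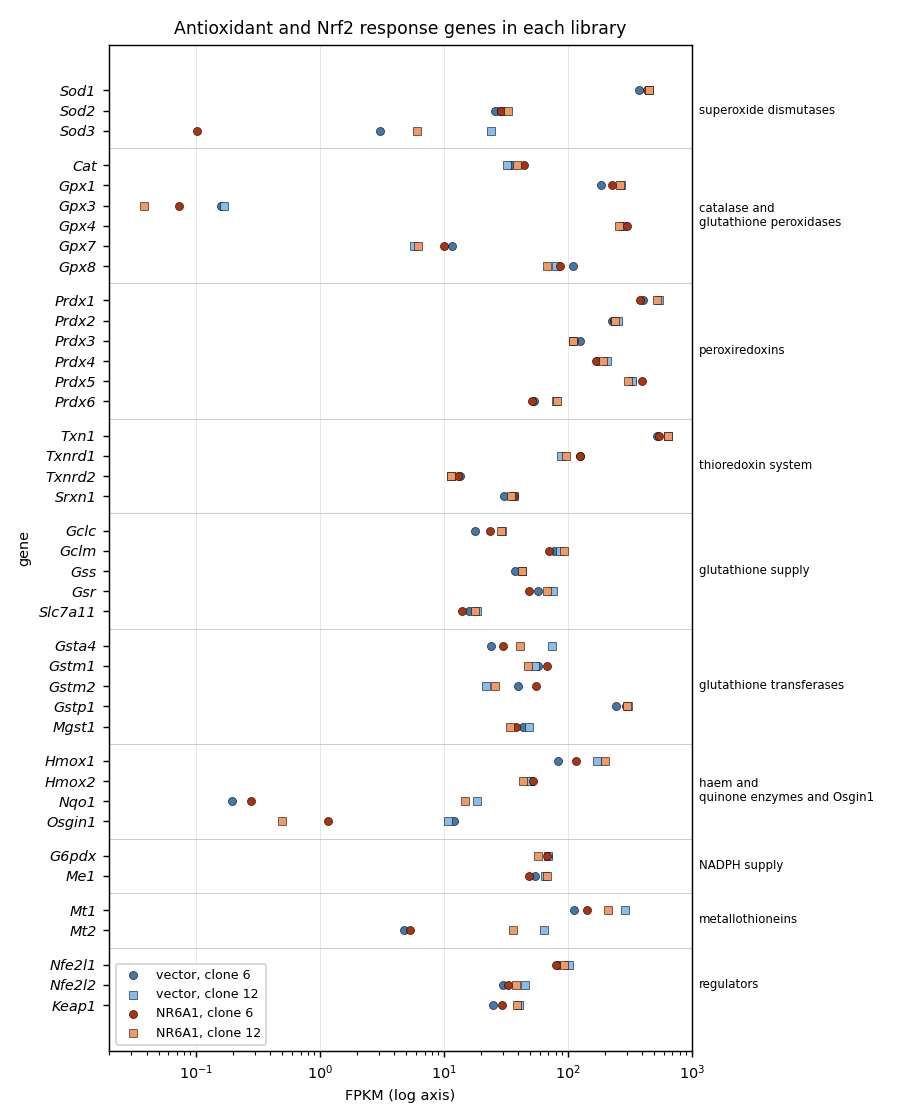
FPKM of the 40 genes (horizontal log axis) in the 4 libraries, grouped by role from top to bottom; colour marks the virus and shape the clone. Most genes hold their 4 points close together, Osgin1 and Sod3 show NR6A1 points left of the vector points of the same clone, and Nqo1 and Mt2 show clone 12 points far right of clone 6.

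With NR6A1, Osgin1 and Sod3 were far lower in both clones, and the other 37 genes that passed the filter changed less on the log2 scale. Among these 37, the log2 change ran from -0.36 (Gpx8) to 0.50 (Hmox1) in clone 6 and from -0.86 (Gsta4) to 0.26 (Cat) in clone 12. Of the 39 genes, 2 were at least 1.5-fold lower in both clones (1.02% of all 11346 genes tested) and 0 were at least 1.5-fold higher in both (0.432%). In both clones, 28 of the 39 changed by less than 0.322 log2 units (77.9% of all genes). Of the other 37 genes, Gsta4 (-0.86), Mt2 (-0.82) and Mgst1 (-0.50) were lowest against vector in clone 12, and Hmox1 (0.50) and Gstm2 (0.48) highest in clone 6. By sign alone, 7 of the 39 were higher in both clones (28.9%), 10 lower in both (29.4%), 16 higher in clone 6 and lower in clone 12 (23.1%) and 6 the reverse (17.9%), which makes 22 opposite in the clones (41.1%). Mt1 alone moved by more than 0.322 log2 units in opposite directions (0.978%). The median log2 change of the 39 was 0.06 in clone 6 and -0.06 in clone 12, beside 0.011 and -0.0096 over all genes tested. Since the genes were chosen with this comparison known, these counts are descriptions.

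**Figure D3:**
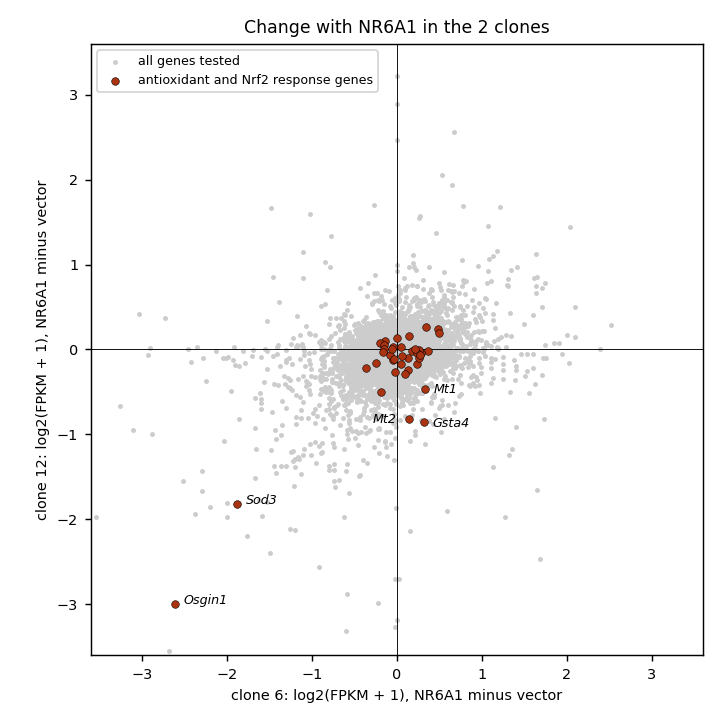
Change of log2(FPKM + 1) with NR6A1 in clone 6 (horizontal axis) and clone 12 (vertical axis), with all genes tested in grey (93 lie outside the axes) and the 39 antioxidant and Nrf2 response genes in red. Osgin1 (-2.61 and -2.99) and Sod3 (-1.88 and -1.82) lie at the lower left, away from the other 37 genes around the origin.

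Osgin1, whose product restrains proliferation under oxidative stress and which is a known Nrf2 target, had the largest log2(FPKM + 1) change of the 39 genes over both clones, while by the ratio in clone 6 Sod3 changed more. In clone 6 it stood at 12.2 FPKM with vector and 1.15 with NR6A1. In clone 12 it stood at 10.9 and 0.497 FPKM. Both NR6A1 libraries were below both vector libraries, and the vector libraries of the clones were close to each other. With NR6A1, Osgin1 averaged 0.826 FPKM, so it met the filter of 1 FPKM only through the vector libraries. Its NR6A1 values stand for 43.6 reads in clone 6 and 18.2 in clone 12 on a transcript of 2000 bases. The ratio of vector to NR6A1 was 10.5 in clone 6 and 21.9 in clone 12. SE here and below are limma's moderated ones, which also draw on the variance of all genes tested. As a description, the log2 change over both clones was -2.80 ± 0.15 (SE, n = 2 per group). Its size depended on the pseudocount, with -3.75 for 0.1 and -1.51 for 5 in place of 1.

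Srxn1, sulfiredoxin, which repairs over-oxidised peroxiredoxins and is another well-known Nrf2 target, did not share this change. It stood at 30.5 FPKM with vector and 37.0 with NR6A1 in clone 6, and at 36.6 and 34.8 FPKM in clone 12. The 250 bases before the start of Osgin1 (GRCm38.p6, chr8:119436897-119437146, plus strand) and of Srxn1 (chr2:152105274-152105523, plus strand) are shown because both hold the letters of an antioxidant response element while their changes with NR6A1 differ. Capitals mark TGACNNNGC or TGAGNNNGC on either strand, 2 forms of the core element.
Osgin1: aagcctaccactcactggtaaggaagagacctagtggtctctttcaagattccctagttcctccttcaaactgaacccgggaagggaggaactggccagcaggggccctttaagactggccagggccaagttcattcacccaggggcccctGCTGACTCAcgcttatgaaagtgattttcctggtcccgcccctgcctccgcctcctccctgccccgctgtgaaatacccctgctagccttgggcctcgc
Srxn1: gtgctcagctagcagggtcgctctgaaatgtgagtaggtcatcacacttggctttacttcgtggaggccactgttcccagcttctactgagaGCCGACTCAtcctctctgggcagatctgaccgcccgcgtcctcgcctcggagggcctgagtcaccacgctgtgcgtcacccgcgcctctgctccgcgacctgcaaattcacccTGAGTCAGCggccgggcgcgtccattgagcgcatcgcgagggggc
Osgin1 holds 1 match, 99 to 91 bases before the start, and Srxn1 holds 2, of which the nearer lies 45 to 37 bases before it. RefSeq promoters were found for 34 of the 40 genes. Of these, 13 hold either form in this window, against 25.7% of 27025 genes in the table. The form TGACNNNGC alone occurs in 8 of the 34 (11.5% of all genes). The form TGAGNNNGC was added after the Osgin1 sequence was seen and occurs in 5 (16.3%). The extended site that NR6A1 recognises, TCAAGGTCA, was found on neither strand in the 34 genes and in 0.422% of all genes. These are matches of letters in a short window, and no match says only that these letters are not there.

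Of the 3 superoxide dismutases, Sod3, the copper-zinc enzyme of the extracellular matrix, had 3.05 FPKM with vector and 0.103 with NR6A1 in clone 6, and 24.1 and 6.10 FPKM in clone 12. Within each clone the NR6A1 library was lower, but the NR6A1 library of clone 12 was above the vector library of clone 6, so the virus groups overlap. The ratio of vector to NR6A1 was 29.7 in clone 6 and 3.94 in clone 12. The first of these rests on a value that stands for 3.87 reads on a transcript of 2000 bases. On the log2(FPKM + 1) scale the clones changed alike (-1.88 and -1.82, clone 6 first). That likeness, and with it the SE below, depends on the pseudocount of 1. The log2 change over both clones was -1.85 ± 0.11 (moderated SE, n = 2 per group), -2.96 with a pseudocount of 0.1 and -1.02 with 5. With a library left out, and so without the clone in the model, it was -3.19 without the clone 12 NR6A1 library, -3.16 without the clone 6 vector library, -0.53 without the clone 12 vector library and -0.50 without the clone 6 NR6A1 library. Sod1, the cytosolic copper-zinc enzyme, stayed within 376 to 452 FPKM, and Sod2, the mitochondrial manganese enzyme, within 26.0 to 32.8. Both were slightly higher with NR6A1 in each clone, Sod1 by a log2 change of 0.21 and 0.0085 and Sod2 by 0.14 and 0.16, clone 6 first.

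Of the peroxide-removing enzymes, catalase was the 1 member of the 39 whose NR6A1 libraries were both above both vector libraries (9.68% of all genes). Cat, the peroxisomal enzyme, read 35.0 FPKM with vector and 44.7 with NR6A1 in clone 6, and 32.5 and 39.1 in clone 12. Gpx4, which reduces lipid hydroperoxides in membranes and protects against ferroptosis, held at 261 to 302 FPKM. Gpx1, the main cytosolic glutathione peroxidase, was at 185 to 270.5 FPKM. Gpx8, an enzyme of the endoplasmic reticulum, stood at 111 FPKM with vector and 86.2 with NR6A1 in clone 6 and at 80.1 and 68.7 in clone 12. Gpx8 was thus lower with NR6A1 in each clone, though the vector library of clone 12 lay below the NR6A1 library of clone 6.

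All 6 peroxiredoxins changed by less than 0.322 log2 units in each clone. The cytosolic Prdx1 and Prdx2 ran over 381 to 547 and 226 to 253 FPKM. The mitochondrial Prdx3 ran over 111 to 126 and Prdx4 of the endoplasmic reticulum over 168 to 208. Prdx5, found in mitochondria, peroxisomes and cytosol, stood at 330 and 394 FPKM in clone 6 and 331 and 308 in clone 12, vector first. Prdx1 and Prdx4 were slightly lower with NR6A1 in each clone. Thioredoxin and its reductases were as even: Txn1 held at 528 to 651 FPKM, the cytosolic reductase Txnrd1 at 88.5 to 127 and the mitochondrial reductase Txnrd2 at 11.4 to 13.5.

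The enzymes that make and recycle glutathione showed no shared direction with NR6A1. Gclc, the catalytic subunit of the rate-limiting ligase, was at 17.99 and 23.4 FPKM in clone 6 and 29.5 and 29.0 in clone 12, vector first. Its modifier subunit Gclm ran over 70.3 to 92.9 FPKM and glutathione synthetase (Gss) over 37.9 to 43.2. Slc7a11, the cystine importer, held at 14.1 to 18.4. Glutathione reductase (Gsr) was lower with NR6A1 in each clone, with 58.1 and 48.8 FPKM in clone 6 and 75.7 and 67.5 in clone 12.

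Among the glutathione transferases, Mgst1, a membrane enzyme, was lower in both NR6A1 libraries than in both vector libraries, with 43.9 and 38.5 FPKM in clone 6 and 48.9 and 34.2 in clone 12. Such a separation downwards was seen for 3 of the 39 genes, Osgin1, Mgst1 and G6pdx (10.7% of all genes). G6pdx was barely lower in clone 6, at 69.6 FPKM with vector and 68.5 with NR6A1, and stood at 69.6 and 57.8 in clone 12. Gsta4, which conjugates lipid aldehydes, went from 23.9 to 30.0 FPKM in clone 6 and from 75.3 to 41.1 in clone 12. Its log2 changes were 0.32 and -0.86. Gstm2 had higher values with NR6A1 in each clone, 39.6 and 55.7 FPKM in clone 6 and 21.8 and 25.8 in clone 12. Gstm1 and Gstp1 ranged over 48.1 to 67.5 and 247 to 304 FPKM. The Gstm genes, and Gstp1 with Gstp2, are similar in sequence, so reads may be split between them and their single values are uncertain.

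Hmox1, the inducible haem oxygenase, was higher with NR6A1 in each clone, at 82.8 and 118 FPKM in clone 6 and 173 and 198 in clone 12. The virus groups overlap, since the vector library of clone 12 exceeds the NR6A1 library of clone 6. Hmox2, the constitutive form, held at 43.9 to 52.4 FPKM. The NADPH sources G6pdx, of the pentose phosphate pathway, and Me1, malic enzyme, ran over 57.8 to 69.6 and 48.5 to 68.4. The regulators Nfe2l1, Nfe2l2 and Keap1 ran over 80.9 to 102, 30.0 to 45.6 and 24.98 to 40.3 FPKM, and all 3 changed by less than 0.322 log2 units with NR6A1 in both clones.

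The clones themselves differed in many of these genes, a comparison that was not used to choose the genes. Nqo1, Mt2 and Sod3 were several-fold higher in clone 12, Hmox1 and Prdx6 moderately so, and Gstm2 and Gpx7 were lower. Of the 39 genes tested, 12 passed limma's adjusted p of 0.05 in the fit with virus and clone (21.9% of all genes), 8 higher in clone 12 (11.5%) and 4 lower (10.5%). Nqo1 is among the 8 but met the filter only through clone 12. The median difference was 0.17 log2 units, beside 0.035 over all genes. Without overlap between the clones, 23 of the 39 were higher in clone 12 (37.7%) and 8 lower (30.3%). Calls were common among all genes in this comparison, so a called gene says how these 2 lines differ. Whether the network differs more between them than other genes do was not tested. Each clone has 2 libraries that also differ in virus, and the fit has 1 residual degree of freedom, so p-values measure how alike the clone difference was with the 2 viruses. Leaving out a library also drops the virus from the model and leaves 1 library in a clone. Fewer of the 39, as of all genes, then passed, and the median difference of the 39 ran from 0.17 to 0.24. With no filter on low genes, limma called 0 of 40 (18 at an unadjusted p under 0.05), beside 0 of all 17887 genes (5360 unadjusted). Without a variance trend limma called 7 of 39, beside 1581 of all 11346 genes. Without 198 short RNA genes it called 18 of 39 (31.3% of all genes).

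**Figure D4:**
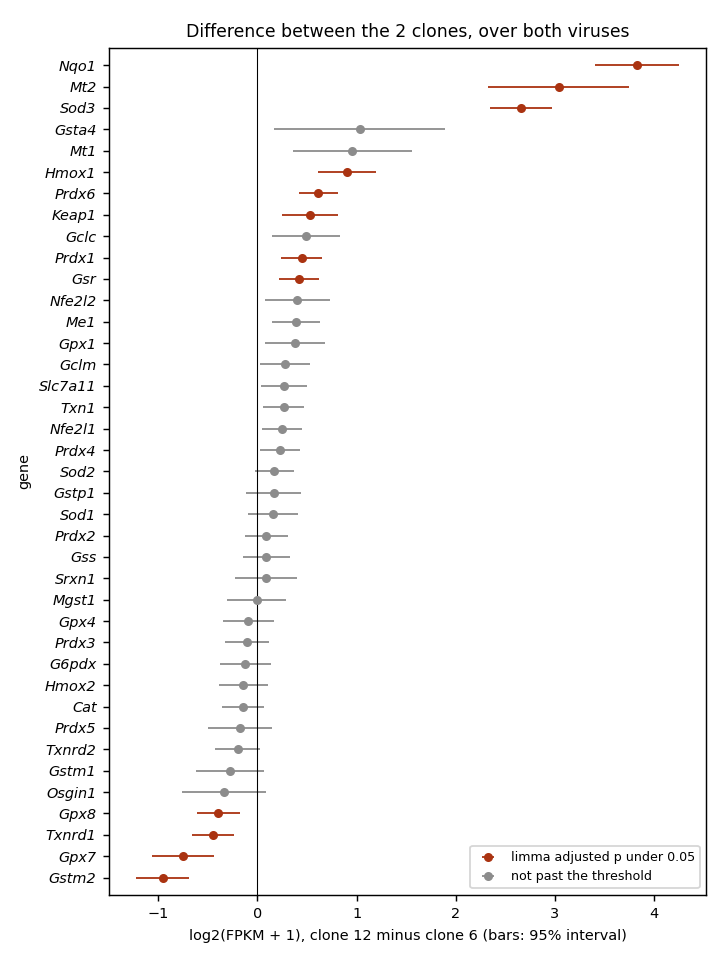
Difference of log2(FPKM + 1) between clone 12 and clone 6 over both viruses for the 39 genes (points, with 95% intervals from limma as bars, 2 libraries per clone); red marks an adjusted p under 0.05. Nqo1 (3.83), Mt2 (3.04) and Sod3 (2.66) stand far right of the rest, and Gstm2 (-0.96) and Gpx7 (-0.75) lie at the left end.

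Nqo1, the quinone reductase that is the textbook Nrf2 target, was near the floor in clone 6 and clearly present in clone 12. It had 0.197 FPKM with vector and 0.280 with NR6A1 in clone 6, against 18.4 and 14.9 in clone 12. The clone 6 values stand for 8.55 and 10.6 reads on a transcript of 2000 bases. Clone 12 was 93.2-fold higher with vector and 53.4-fold with NR6A1. The difference was 3.83 ± 0.15 log2 units (SE, n = 2 per clone, limma adjusted p = 0.00675), 5.63 with a pseudocount of 0.1 and 2.04 with 5. Since Nqo1 lay under 1 FPKM in clone 6 and met the filter only through clone 12, nothing further is read from its call, which was lost with no filter (limma adjusted p = 0.0798). The 250 bases before its start (GRCm38.p6, chr8:107403206-107403455, minus strand) are shown because its clone difference was the largest of the 39 with the pseudocount of 1, though not with 5, where that of Mt2 was 2.42. They hold no match to either form of the antioxidant response element, which says nothing of sites further away.
Nqo1: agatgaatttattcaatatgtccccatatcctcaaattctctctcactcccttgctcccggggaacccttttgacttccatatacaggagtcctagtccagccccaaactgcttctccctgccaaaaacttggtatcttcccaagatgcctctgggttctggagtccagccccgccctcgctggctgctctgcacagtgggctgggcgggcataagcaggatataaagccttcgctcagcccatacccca

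Both metallothioneins were higher in clone 12. Mt2 had 4.74 FPKM with vector and 5.32 with NR6A1 in clone 6, against 64.6 and 36.3 in clone 12. Its difference was 3.04 ± 0.25 log2 units (SE, n = 2 per clone, limma adjusted p = 0.0160). Mt1 had 113 and 142 FPKM in clone 6, against 289.9 and 210.3 in clone 12. Its difference of 0.96 ± 0.21 (SE, n = 2 per clone) missed the threshold (limma adjusted p = 0.0511), which it met once short RNA genes were left out (limma adjusted p = 0.0173). For both genes each clone 12 library was above each clone 6 library, and with NR6A1 both had a higher value in clone 6 and a lower one in clone 12. Mt2 lost its call without the clone 6 vector library (limma adjusted p = 0.0753), the clone 12 vector library (0.0610) or the clone 6 NR6A1 library (0.0561). The windows before Mt2 (GRCm38.p6, chr8:94172368-94172617, plus strand) and its neighbour Mt1 (chr8:94178839-94179088, plus strand) are shown for these 2 genes, with the metal response element core, TGCACNC or TGCGCNC on either strand, in capitals.
Mt2: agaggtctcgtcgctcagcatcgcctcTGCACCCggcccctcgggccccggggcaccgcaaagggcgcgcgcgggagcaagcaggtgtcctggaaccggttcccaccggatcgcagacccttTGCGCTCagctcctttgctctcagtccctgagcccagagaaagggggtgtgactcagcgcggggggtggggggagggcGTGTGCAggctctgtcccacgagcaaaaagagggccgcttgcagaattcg
Mt1: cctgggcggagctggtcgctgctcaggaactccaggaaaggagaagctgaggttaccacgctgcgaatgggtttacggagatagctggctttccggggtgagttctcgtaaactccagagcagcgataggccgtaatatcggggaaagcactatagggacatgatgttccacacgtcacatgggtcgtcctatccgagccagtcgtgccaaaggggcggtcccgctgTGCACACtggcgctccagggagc
Mt2 holds 3 matches and Mt1 holds 1, which says nothing of sites outside these windows. At least 1 match is found in 10 of the 34 genes with a promoter and in 23.8% of all genes, and 3 or more in 1.46% of all genes. Mt2 also holds TGACTCAGC, a match to the antioxidant response element, 79 to 71 bases before its start.

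Sod3 differed between clones by 2.66 ± 0.11 log2 units (SE, n = 2 per clone, limma adjusted p = 0.00729), with clone 12 higher in both virus groups (7.89-fold with vector and 59.5-fold with NR6A1, the second from the low clone 6 value given above). Its call was lost with virus left out of the model (limma adjusted p = 0.113) and with each library left out, where its limma adjusted p ran from 0.119 to 0.394. The difference itself was 3.597 without the clone 6 vector library, 3.57 without the clone 12 NR6A1 library, 1.75 without the clone 12 vector library and 1.72 without the clone 6 NR6A1 library. It was 3.94 with a pseudocount of 0.1 (limma adjusted p = 0.0203) and 1.49 with 5 (limma adjusted p = 0.0254).

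Hmox1 was 0.90 ± 0.10 log2 units higher in clone 12 (SE, n = 2 per clone, limma adjusted p = 0.0215), from the values given above. Prdx6, a peroxiredoxin that also acts as a phospholipase, had 53.5 and 52.0 FPKM in clone 6 and 80.5 and 81.9 in clone 12, vector first, a difference of 0.61 ± 0.07 (limma adjusted p = 0.0215). Its libraries fell into 2 tight pairs by clone. Keap1 had 24.98 and 29.6 FPKM in clone 6 and 40.3 and 39.0 in clone 12, a difference of 0.53 ± 0.10 (limma adjusted p = 0.0402). Its call was lost with upper quartile scaling (limma adjusted p = 0.0511), with quantile scaling (0.0560) and without a variance trend (0.0644).

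Prdx1 was 0.45 ± 0.07 and Gsr 0.42 ± 0.07 log2 units higher in clone 12 (SE, n = 2 per clone, limma adjusted p = 0.0322 and 0.0351). Gsr lost its call with virus left out of the model (limma adjusted p = 0.0796). Without a variance trend Prdx1 (0.0524) and Gsr (0.0594) both lost theirs in limma. Nfe2l2 itself had 30.0 and 32.8 FPKM in clone 6 and 45.6 and 38.4 in clone 12, and its difference of 0.40 did not pass (95% interval 0.07 to 0.73, limma adjusted p = 0.0839), though it did without short RNA genes (limma adjusted p = 0.0440). The Nrf2 targets Srxn1 and Gclm did not pass either, with differences of 0.08 (95% interval -0.23 to 0.40) and 0.28 (0.02 to 0.53). Of the transferases, Gsta4 had the widest interval, 0.17 to 1.89 around 1.03 (limma adjusted p = 0.0870, and 0.0366 without short RNA genes).

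The 4 genes lower in clone 12 were Gstm2, Gpx7, Txnrd1 and Gpx8. Gstm2 differed by -0.96 ± 0.09 log2 units (SE, n = 2 per clone, limma adjusted p = 0.0193). Gpx7, like Gpx8 a peroxidase of the endoplasmic reticulum, had 11.6 and 9.98 FPKM in clone 6 and 5.79 and 6.15 in clone 12, a difference of -0.75 ± 0.11 (limma adjusted p = 0.0285). Txnrd1, a selenoprotein and Nrf2 target, had 127 and 127 FPKM in clone 6 and 88.5 and 97.1 in clone 12 (-0.45 ± 0.08, limma adjusted p = 0.0346, and 0.0584 without a variance trend). Gpx8 differed by -0.40 ± 0.08 (limma adjusted p = 0.0422), and its call was lost with virus left out of the model (limma adjusted p = 0.151) and without a variance trend (0.0703).

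Beyond the 40 genes, 86 further genes of antioxidant defence and its regulation were listed, of which 85 were in the table and 65 passed the filter. The 86 genes were listed with earlier results of these data known. Their counts with NR6A1, limma calls included, are therefore descriptions. With NR6A1, 22 of the 65 (33.8%, beside 28.9% of all genes) were above vector in each clone and 23 (35.4%, beside 29.4%) below it. Their median log2 change was 0.03. Limma called 0 of the 65 (0.0353% of all genes), with 16 at an unadjusted p under 0.05 (8.48% of all genes). Of these 16, 5 were higher (3.47% of all genes) and 11 lower (5.01%). Limma called 1, Aifm2, without short RNA genes such as microRNA genes (0.457% of all genes). Aifm2, which regenerates reduced ubiquinone and protects membranes from lipid peroxidation, stood at 20.8 FPKM with vector and 10.9 with NR6A1 in clone 6 and at 16.4 and 8.87 in clone 12. Both NR6A1 libraries of Aifm2 were below both vector libraries. The other genes with the largest decrease common to both clones were Mgst2, a membrane glutathione transferase (log2 change -0.73 in clone 6 and -1.35 in clone 12), the aldo-keto reductase Akr1b8 (-0.86 and -0.49) and Sepp1, the selenium carrier selenoprotein P (-0.78 and -0.46). The largest increases common to both clones were those of the glutaredoxin Glrx (0.92 and 0.35), the biliverdin reductase Blvrb (0.22 and 0.32), Gsto1 (0.35 and 0.21) and Glrx2 (0.19 and 0.25).

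Between clones, 19 of the 65 (29.2%) passed the adjusted threshold, beside 21.9% of all genes. Of these, 10 were higher in clone 12 (11.5% of all genes) and 9 lower (10.5%). Msrb2 is among the 10 but met the filter only through clone 12. It had 0.622 and 0.815 FPKM in clone 6 and 1.98 and 2.90 in clone 12, vector first. The largest differences upwards were those of Mgst2 (2.22 ± 0.18 log2 units), Gstt1, a theta class glutathione transferase (1.87 ± 0.18), and the aldehyde dehydrogenase Aldh3a1 (1.86 ± 0.22). The largest downwards were those of Ggt5, a gamma-glutamyl transferase (-1.24 ± 0.16), the carbonyl reductase Cbr3 (-1.02 ± 0.09) and Sepp1 (-1.01 ± 0.11). Their limma adjusted p ran from 0.0158 (Mgst2) to 0.0244 (Ggt5). With any library left out, fewer of the 65 passed, as of all genes.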

How the data were processed

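The authors deposited 1 table of FPKM values, with 1 column per library, for 21881 gene symbols. The tools were TopHat 1.2.0 and Cufflinks 1.0.3 on mouse build mm9, per the submitters' processing notes. Annotation and strandedness: not given in the sources used here. Depth was inferred from 1823 genes with 1 transcript length of at least 1500 bases (GENCODE M21), taking 1 read as inversely proportional to length minus 210 bases. Of values below 10 inferred reads, 50.1% to 53.3% came within 0.1 of a whole number. The depths and the 210 bases were picked to make this share largest, so the 20% of random values is too low a benchmark. Depths are therefore approximate, and count models were not applied. Log2(FPKM + 1) values of 11346 genes averaging 1 FPKM or more were fitted with limma 3.58.1 in R 4.3.3 (two-sided, mean-variance trend, prior of 2.9 degrees of freedom, Benjamini-Hochberg over all genes tested, threshold 0.05), with virus and clone as terms; the fit was tested on simulated data. Clone numbers pair the libraries because, per the labels' protocols, each line received both viruses; over all genes tested, the clone difference in vector libraries and that in NR6A1 libraries had r = 0.628. Cultures beyond the 2 clones are not named. Promoter sequences are RefSeq's (GRCm38.p6), matched by symbol, with none for Sod3, Gsta4, Gsr, Hmox1, Gclc and Prdx6. The members, lists, named-gene rule (all 40 genes; of the 86 others the 4 largest changes per direction common to both clones with a mean of at least 5 FPKM, and the 3 largest called clone differences per direction) and alternatives were chosen with earlier results of these data known. Pseudocounts, filters, scalings, the prior and trend, short RNA genes, the terms of the model and each library were varied.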

Additional observations from a re-analysis of the deposited data

Results flagged for a closer look

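Mt1 moved in opposite directions with NR6A1 in the 2 clones, by more than 0.322 log2 units in each (0.978% of all genes). The log2 change was 0.33 in clone 6 and -0.46 in clone 12, so the change in clone 12 minus that in clone 6 was -0.79. Each clone gives 1 pair of libraries, and the difference between the clones was not tested. Gsta4, with 0.3198 and -0.86, lay just under that limit in clone 6.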

How the results depend on the processing

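For NR6A1 against vector, limma called 4 of 11346 genes, and 7 with a pseudocount of 5, 2 with no filter, 38 with a robust prior and 51 without short RNA genes. With each library left out the range was 0 to 0 genes (96 to 286 at an unadjusted p under 0.05). The median log2 change of the 39 genes, -0.02, ran from -0.144 to 0.0811 with each library left out. For clone 12 against clone 6, 2490 genes were called, against 0 of 17887 with no filter (5360 at an unadjusted p under 0.05), 1581 without a trend and 41 to 889 with each library left out. Of the 39 antioxidant and Nrf2 response genes, 12 were called, against 0 with no filter, 7 without a trend and 1 to 6 with each library left out. Their median difference, 0.17, ran from 0.17 to 0.24 with each library left out. Without the replicate block (the paired clone or virus term), 4 genes were called for NR6A1 against vector, 1993 between clones and 11 of the 39 genes between clones; Sod3, Gsr and Gpx8 lost the call between clones and Me1 and Mt1 gained it (limma adjusted p = 0.0476 and 0.0479). Upper quartile and quantile scaling each left 11 of the 39 called, beside 2171 and 1947 of all genes. Fits with a library left out have 1 residual degree of freedom and assume that a lone library varies like the others. Why the counts moved was not tested, beyond the smaller number of libraries or larger number of genes that these settings bring. Depth limits Gpx3 in every library, Nqo1 in clone 6 and Sod3 in the NR6A1 library of clone 6. To a lesser degree it limits Osgin1 in the NR6A1 library of clone 12 (18.2 reads on a transcript of 2000 bases).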

Other observations

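Ferritin, the iron store whose heavy and light chain genes are Nrf2 targets, was the most abundant product of the 86 further genes, and these values were chosen after they were seen. Fth1, the heavy chain, stood at 2141 FPKM with vector and 3201 with NR6A1 in clone 6 and at 2793 and 2791 in clone 12. Ftl1, the light chain, stood at 2774 and 2038 FPKM in clone 6 and at 2052 and 1655 in clone 12. Ftl1 was thus lower with NR6A1 in each clone, while Fth1 was higher in clone 6 and level in clone 12. Ferritin genes have many processed copies in the genome, to which reads may also be assigned, so these values are uncertain. Of the genes of oxidant-producing oxidases, Nox4 had 0.744 to 1.39 FPKM and Nox1 at most 0.0292. Cybb and Cyba were listed at 0 in every library, which in a table without read counts can also be a failed estimate.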
